A study of Mus musculus with 20 samples.

Results

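Hmgcs1, Idi1, Fdps, Sqle, Insig1, Acat1, Fasn and Scd2 are 8 mouse genes of sterol and fatty acid metabolism, chosen by name and found in both single-cell expression tables, among 15855 genes in the table of cultured macrophages and 15333 in that of tumor cells. The cultures comprised 2 libraries of B-MF, macrophages grown from bone marrow (BM) B cells depleted of other lineages, and 2 of Mo-MF, grown from BM monocytes, both in medium conditioned by 4T1.2 mouse breast cancer cells. The tumor cells came from 4 libraries of macrophages sorted from 4T1.2 tumors. A further 12 ATAC-seq libraries, which map open chromatin with the Tn5 transposase, covered CSF1R+ and CSF1R- cells of BM and spleen, 3 libraries each. According to the study, these came from naive mice. The labels call these cells macrophages, whereas the methods of the study describe them as B-cell precursors. The mice were young females, and strain was not given per library in the labels.

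Cholesterol is built from acetyl-CoA through mevalonate and isoprenoid units to squalene and then sterols, and fatty acids are built from the same acetyl-CoA. Both routes are driven by the SREBP transcription factors. When sterols are plentiful, INSIG proteins hold the SREBP escort SCAP in the endoplasmic reticulum and the enzymes fall. Macrophages load cholesterol from the cells they engulf and export the excess under the LXR receptors, and dividing cells need new membrane lipid.

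HMGCS1 condenses acetyl-CoA units to HMG-CoA, IDI1 isomerizes the isoprenoid building block, FDPS joins these blocks to farnesyl diphosphate and SQLE oxidizes squalene. INSIG1 is the retention protein described above. ACAT1 is a mitochondrial thiolase that acts on acetoacetyl-CoA, and not the sterol-esterifying enzyme of the same alias, which Soat1 encodes. FASN makes palmitate and SCD2 is a desaturase that turns saturated into monounsaturated fatty acids. Hmgcs1 and Idi1 lie on chromosome 13 of GRCm38 (mm10), Sqle on 15, Fdps on 3, Insig1 on 5, Acat1 on 9, Fasn on 11 and Scd2 on 19.

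RefSeq promoter windows, which reach from 250 bases before to 50 after the start site, were at hand for 4 of the 8 genes, and they are shown because an ATAC-seq peak overlapped each of them in all 12 libraries. The windows, with build GRCm38.p6, are chr13:119690101-119690400 (plus strand) for Hmgcs1, chr13:8885356-8885655 (plus) for Idi1, chr5:28071162-28071461 (plus) for Insig1 and chr11:120824498-120824797 (minus) for Fasn. Capitals mark the sterol regulatory element pattern TCACNCCAC, the shorter TCACCC, which overlaps it where N is C, and CCAAT, all on either strand, so that a reverse match reads GGGTGA or ATTGG.
Hmgcs1: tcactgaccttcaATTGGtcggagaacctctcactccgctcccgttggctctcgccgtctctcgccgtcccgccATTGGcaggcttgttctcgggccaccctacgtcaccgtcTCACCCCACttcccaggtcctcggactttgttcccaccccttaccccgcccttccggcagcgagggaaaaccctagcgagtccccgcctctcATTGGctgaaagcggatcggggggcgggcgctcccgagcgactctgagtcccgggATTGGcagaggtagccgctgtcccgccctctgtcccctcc
Idi1: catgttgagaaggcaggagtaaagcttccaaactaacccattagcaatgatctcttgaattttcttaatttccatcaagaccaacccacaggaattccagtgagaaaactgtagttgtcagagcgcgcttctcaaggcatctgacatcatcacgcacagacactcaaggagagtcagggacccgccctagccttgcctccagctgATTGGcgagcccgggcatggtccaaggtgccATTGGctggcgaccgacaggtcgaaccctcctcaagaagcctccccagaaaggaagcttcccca
Insig1: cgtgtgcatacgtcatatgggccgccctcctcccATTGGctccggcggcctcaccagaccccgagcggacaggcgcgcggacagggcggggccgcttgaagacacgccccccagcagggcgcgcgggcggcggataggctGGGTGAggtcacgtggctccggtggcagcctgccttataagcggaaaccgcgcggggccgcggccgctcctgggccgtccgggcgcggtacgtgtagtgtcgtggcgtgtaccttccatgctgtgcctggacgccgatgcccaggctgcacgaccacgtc
Fasn: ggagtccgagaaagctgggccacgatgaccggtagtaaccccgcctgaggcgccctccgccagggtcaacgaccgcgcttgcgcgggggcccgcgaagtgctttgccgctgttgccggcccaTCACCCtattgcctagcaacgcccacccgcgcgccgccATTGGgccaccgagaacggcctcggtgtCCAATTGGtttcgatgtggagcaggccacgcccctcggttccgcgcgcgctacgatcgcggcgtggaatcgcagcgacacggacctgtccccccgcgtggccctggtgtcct
Hmgcs1 held the full TCACNCCAC pattern, beginning 137 bases before the start site, which 1.24% of the 32851 RefSeq windows of this length held on either strand. TCACCC alone was in the Insig1 window, on the reverse strand, and in the Fasn window, on the forward strand, against 16.2% of all windows. CCAAT occurred 4 times in Hmgcs1, 3 times in Fasn, 2 times in Idi1 and once in Insig1, and in 37.4% of all windows at least once. In Fasn a forward and a reverse CCAAT overlap in the run CCAATTGG. GGGCGG, the core of a GC box, was found 3 times each in Hmgcs1 and Insig1, once in Idi1 and in 35.7% of all windows, and was not seen in the Fasn window. These are matches of letters and no binding was measured.

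The expression values were natural logs of 1 plus a count corrected for depth with SCTransform, and they were converted back to corrected counts and averaged over the cells of a library. A level below is this mean corrected count per cell. A log2 difference is the difference of log2(mean + 0.1), a scale that understates the change of low genes. Levels are compared between cells and not between genes, since the assay tags the 3′ end of transcripts. Libraries were the replicates. The tumor cells were from different mice, as many as there were libraries, as described by the study. Nothing in the labels says that the culture libraries came from separate cultures, so their p-values measure a spread that may be technical. The B-MF libraries held 5237 and 5326 cells, the Mo-MF libraries 4846 and 5389 and the tumor libraries 2318 to 3180. Median corrected counts per cell were 18350 to 19469 in the cultures and 7651 to 8266 in the tumor, where the correction was separate, so the tables are not compared with each other. In the cultures, median detected genes were 3874 and 3400.5 in B-MF replicates 1 and 2 and 3864 and 3773 in Mo-MF replicates 1 and 2. The part of this difference in the comparisons was not tested. Any pair of libraries shared at most 14 cell barcodes. Of 8 macrophage markers, 7 were higher in both B-MF libraries than in both Mo-MF libraries, for example Mrc1 at 11.3 and 11.2 against 5.84 and 5.96. Apoe was the exception, at 146 and 139 against 507 and 499, and it set the sum of the 8, which was 282 to 293 in B-MF and 590 to 600 in Mo-MF. Without Apoe the sum was 147 and 143 against 92.6 and 91.9. Markers of other cells moved both ways. In Mo-MF, 7 neutrophil markers summed to 119 to 148 (1.0 to 1.39 in B-MF), 6 monocyte markers to 3.41 to 3.63 (0.223 to 0.293) and 4 osteoclast markers to 9.25 to 9.36 (3.48 to 3.6). Atp6v0d2 made up most of the osteoclast sums, and Dcstamp went the other way (0.0048 and 0.0090 in B-MF, 0 in Mo-MF). In B-MF, 7 B cell markers summed to 0.463 to 0.493 (0.135 to 0.158 in Mo-MF, with 3 to 4 of them at 0) and 4 fibroblast markers to 0.139 to 0.157 (0 to 0.0210). Ighm made up most of the B cell sum of B-MF (0.362 and 0.342). Cd79b was the exception among the B cell markers, at 0.065 and 0.056 in B-MF against 0.108 and 0.104 in Mo-MF. A fibroblast-like cluster held 20 and 13 cells of the B-MF libraries and 0 and 1 of the Mo-MF libraries, and in its 20 cells Scd2 was at 2.45 and Fdps at 2.05. Neutrophil-like clusters held 509 and 521 cells of the Mo-MF libraries and 3 and 0 of the B-MF libraries.

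To ask whether B-MF and Mo-MF differ in lipid synthesis genes, the levels were compared over libraries. All 8 genes were higher in B-MF, by log2 differences of 0.50 (Hmgcs1) to 1.03 (Sqle). Of 8633 genes tested, 39.5% were called at an adjusted p of 0.05, 22.6% as higher and 16.9% as lower. The median difference was 0.70 over the 8 genes and 0.02 over all genes tested. The 8 were chosen with earlier results of these data known, so their count and median are a description. For none of the 8 did B-MF and Mo-MF libraries overlap, but the share of all genes without overlap was not counted. Over all genes, 1955 were higher and 1458 lower. The balance turned without B-MF replicate 1, to 2248 higher and 2950 lower. It shifted the opposite way, towards more genes higher, without B-MF replicate 2 (3855 higher and 1680 lower), and kept its direction without Mo-MF replicate 1 (1128 and 863) or 2 (1112 and 1020). All 8 genes were higher in each of these fits. The marker sums given above also differed between the cultures. The part of the macrophage, monocyte, osteoclast and B cell markers was not tested, and values without the clusters of other cell types follow below.

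Of the mevalonate and isoprenoid enzymes, Hmgcs1 measured 0.792 and 0.715 in the 2 B-MF libraries but 0.513 and 0.494 in the Mo-MF libraries. This is a log2 difference of 0.50, with a standard error of 0.06 and a limma p of 3.5e-04 after Benjamini-Hochberg adjustment. The isomerase gene Idi1 measured 0.332 and 0.308 in B-MF against 0.162 and 0.158 for Mo-MF, with a log2 difference of 0.69. Fdps, at 0.979 and 0.883 against 0.433 and 0.423, differed by 0.96, or 1.95-fold on this scale (limma adjusted p = 7.8e-06). The squalene oxidizer Sqle differed most of the 8 at pseudocounts of 0.1 and 0.01, whereas with a pseudocount of 1 Fdps did (0.43, against 0.31 for Sqle) and the smallest difference was that of Fasn (0.13). The B-MF libraries of Sqle stood at 0.469 and 0.447, its Mo-MF libraries at 0.179 and 0.169 (log2 difference 1.03, standard error 0.05, limma adjusted p = 2.7e-06).

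Insig1, the sterol-sensing brake, was higher in B-MF together with the enzymes, with levels of 0.638 and 0.610 against 0.343 and 0.343 and a log2 difference of 0.71. The mitochondrial thiolase gene Acat1, at 0.846 and 0.779 in B-MF, was at 0.512 and 0.528 in Mo-MF, a difference of 0.56. Fasn was low in both cultures, at 0.219 and 0.203 against 0.109 and 0.111, and differed by 0.57. Scd2 showed the larger difference of these 2 fatty acid genes, from 0.20 and 0.207 in Mo-MF to 0.461 and 0.436 in B-MF (log2 difference 0.85, standard error 0.05, limma adjusted p = 7.2e-06). Its relative Scd1, the main desaturase of liver and fat, was close to absent, at no more than 0.0166 in any culture library, and was below the minimum mean of 0.1 for a test.

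Cells were called cycling at 3 or more corrected counts of Mki67 plus Top2a, a marker and an enzyme of dividing cells. There were 337 and 353 such cells in the B-MF libraries, or 6.43% and 6.63%, and 257 and 314 in the Mo-MF libraries, or 5.30% and 5.83%. Without them all 8 genes were still higher in B-MF, with log2 differences of 0.48 (Hmgcs1) to 1.01 (Sqle) and limma adjusted p of 8.8e-04 or less, where 39.3% of 8504 genes were called, 22.4% as higher and 17% as lower. Sqle then measured 0.446 and 0.429 in B-MF against 0.173 and 0.160 in Mo-MF, and Fdps 0.912 and 0.839 against 0.409 and 0.396. With cycling cells kept and the clusters of neutrophil-like and other cell types left out, all 8 genes were higher as well, from 0.47 for Hmgcs1 to 1.0 for Sqle. In that fit 1787 genes were called higher and 1463 lower, of 8595 tested.

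**Figure D1:**
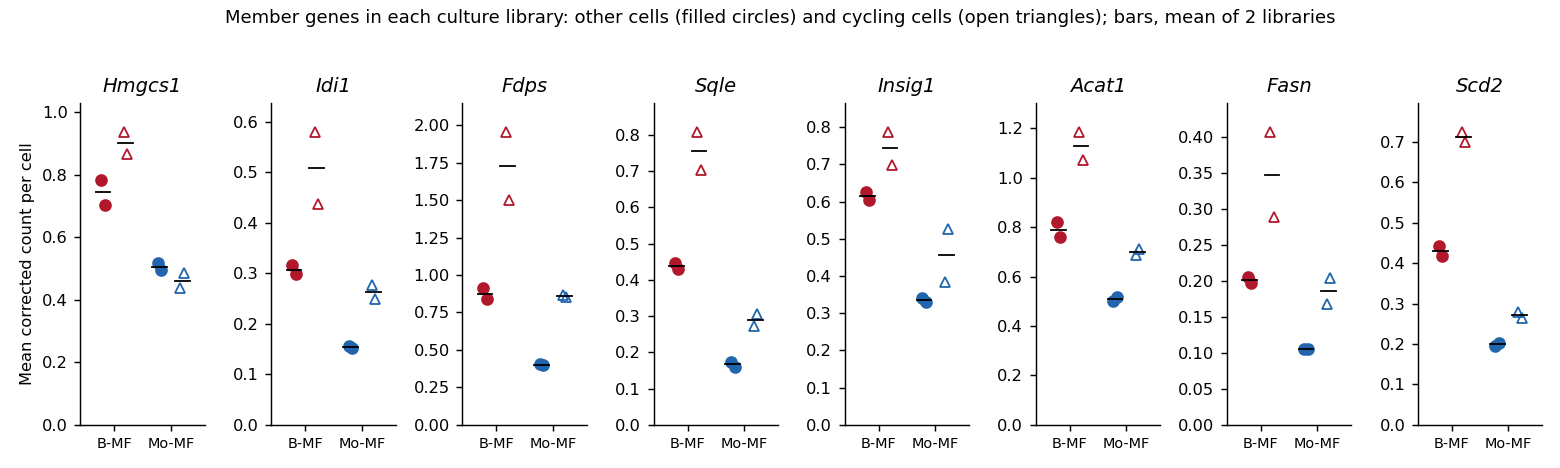
Mean corrected count per cell (vertical axes, from 0) of the 8 genes in the 2 B-MF (red) and 2 Mo-MF (blue) libraries; filled circles are cells under the cycling threshold, open triangles are cycling cells and bars are means of 2 libraries. Within each of the 2 classes of cells, both B-MF points lie above both Mo-MF points for all 8 genes, for example Sqle in cycling cells at 0.807 and 0.703 against 0.272 and 0.306. The share of all genes with this order was not counted.

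The other genes of the pathways were taken from lists chosen by function, and their counts are read against the 22.6% of all genes that were higher and the 16.9% that were lower, with a median of 0.02. Of 22 cholesterol synthesis genes, 20 could be tested, 16 were higher in B-MF and 0 lower, with a median log2 difference of 0.37. Among them, besides Sqle and Fdps, Cyp51 (0.80), a sterol demethylase that acts after squalene, was higher. Acat2, the cytosolic thiolase that feeds the route, differed by 0.31. Hmgcs1, Idi1, Fdps and Sqle are themselves among the 16.

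Among 12 tested genes of SREBP control and sterol uptake, 4 were higher in B-MF and 0 lower, with a median of 0.07. Besides Insig1, they included the sterol carrier Stard4 (0.61) and Srebf2 (0.23), which encodes the SREBP of sterol genes. Srebf1, which encodes the SREBP of fatty acid genes, had a difference of 0.02 with a 95% interval from -0.13 to 0.16. Of 10 tested fatty acid synthesis genes (median 0.20), 6 were higher, with Fads1 (0.36) and the citrate carrier Slc25a1 (0.24) after Scd2 and Fasn, and 1 was lower, the acetate-using Acss2 (-0.39).

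The list of mitochondrial thiolysis and ketone body genes (median 0.19) had 7 of 12 higher, with Oxct1 (0.59), which activates acetoacetate, Acat1, Hadha (0.29) and Hadh (0.26), and 1 lower, the carnitine transferase Cpt1a (-0.50). The genes of LXR and sterol efflux went the other way: 6 of 8 tested were lower in B-MF and 1 higher, with a median of -0.48. The lipid carrier Apoe (-1.82), the exporter Abcg1 (-0.73), the LXR gene Nr1h3 (-0.66) and Soat1 (-0.54) were lower, the exporter Abca1 by less (-0.17, limma adjusted p = 0.036), and Lpcat3, which remodels phospholipids, was higher (0.42). Apoe is also in the macrophage marker list given above.

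Cycling cells of the cultures had higher levels than the other cells of the same library for 7 of the 8 genes (Hmgcs1 excepted), but so did 64% of 9196 genes tested, with 10.2% lower and 74.3% called in all. The median difference was 0.26 over all genes and 0.49 over the 8. Cycling cells had a mean of 19369 to 19922 corrected counts per cell and other cells 18648 to 19024, and their median number of detected genes was 4447 to 4705 against 3352 to 3829, so both measures moved with the comparison, and their part was not tested. When the median of all genes was set to 0 in each group of cells, 35.8% instead of 86.2% of all called genes were higher. Of 9196 genes tested, 2118 were then higher and 3802 lower. Of the 8, 3 were then higher, Fdps (0.57), Sqle (0.26) and Idi1 (0.20), and Hmgcs1 was lower (-0.28, limma adjusted p = 0.017). Acat1 (0.08), Fasn (0.17), Scd2 (0.12) and Insig1 (-0.06) did not pass.

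Fdps rose from 0.912 to 1.95 and from 0.839 to 1.5 in the B-MF libraries and from 0.409 to 0.868 and from 0.396 to 0.854 in the Mo-MF libraries, a log2 difference of 0.91 (standard error 0.06, limma adjusted p = 4.9e-06). Without the clusters of other cell types the rise in Mo-MF was smaller, from 0.414 to 0.585 and from 0.406 to 0.719. By library this is a difference of 0.41 and 0.69 instead of 0.93 and 0.94. Over both cultures the difference was then 0.72. Hmgcs1 in cycling cells was at 0.935 and 0.867 against 0.782 and 0.704 in B-MF, and at 0.436 and 0.484 against 0.517 and 0.494 in Mo-MF. Its log2 differences by library were 0.23 and 0.27 for B-MF but -0.20 and -0.03 for Mo-MF, and the test of the difference between the cultures, given below, did not pass. Insig1 was higher in all 4 libraries, by 0.14 to 0.54. Without the clusters of other cell types, the Mo-MF differences of Hmgcs1 were -0.33 and -0.13, that of Insig1 in Mo-MF replicate 1 was 0.07 instead of 0.14, and those of Scd2 were 0.05 and 0.10 instead of 0.36 and 0.26. Those of Sqle and Idi1 in Mo-MF replicate 1 were 0.24 instead of 0.45 and 0.23 instead of 0.56.

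The other genes of the pathways are read against the 64% of all genes that were higher in cycling cells and their median of 0.26. Of 21 tested cholesterol synthesis genes 18 were higher and 0 lower (median 0.40), led by Lbr (1.62), a sterol reductase that also anchors chromatin at the nuclear envelope, with Acat2 (0.87) and Mvk (0.74), the kinase of mevalonate. SREBP control and uptake genes were higher for 9 of 12 (median 0.27), among them Erlin1 (0.53) and Stard4 (0.48), and fatty acid synthesis genes for 8 of 10 (median 0.30), among them the elongase Elovl5 (0.59). LXR and efflux genes were lower for 5 of 8 (median -0.25), with Abca1 at -1.38, Apoe at -1.17 and Abcg1 at -0.59. Thiolysis and ketone genes had 6 higher and 1 lower of 12 (median 0.14), among the former Acadl (0.60) and Oxct1 (0.53).

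The difference of the cycling effect between B-MF and Mo-MF was tested by an interaction term. None of the 8 genes passed in limma, where 2 had an unadjusted p under 0.05 and 3.48% of 9196 genes were called, 1.35% as higher and 2.13% as lower. The largest values were 0.36 for Hmgcs1 (95% interval 0.14 to 0.58, adjusted p = 0.088) and 0.30 for Scd2 (0.10 to 0.51, adjusted p = 0.12). Without the clusters of other cell types both passed, at 0.48 and 0.46 (limma adjusted p = 0.038 and 0.031), and over all alternatives the adjusted p ran from 0.023 to 0.35 for Hmgcs1 and from 0.031 to 0.40 for Scd2. For Fdps the difference was -0.04, with an interval of -0.28 to 0.20, and it turned to 0.33 without the clusters of other cell types (limma adjusted p = 0.19). For Sqle the interval was -0.11 to 0.36. Over all genes, the fit without the clusters of other cell types called 90 higher and 206 lower, of 9138 tested.

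**Figure D2:**
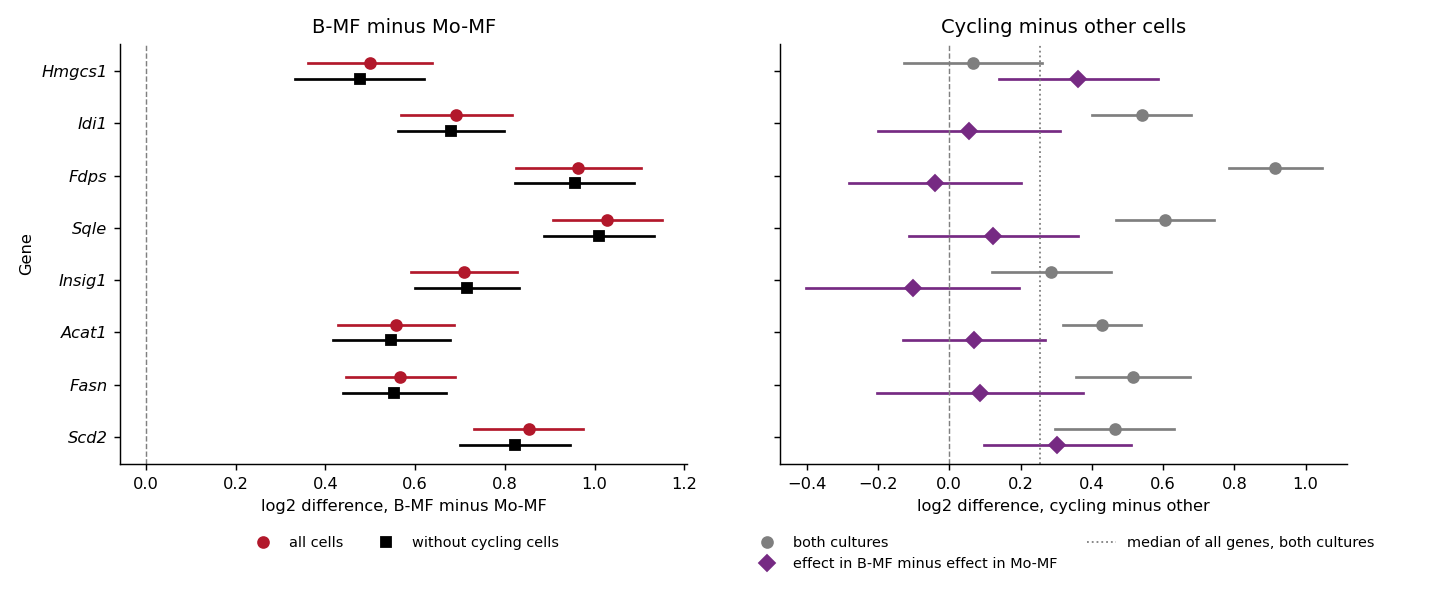
Log2 differences (horizontal axes) of the 8 genes with 95% intervals from limma, on the left for B-MF minus Mo-MF in all cells and without cycling cells, and on the right for cycling minus other cells and for the difference of that effect between the cultures; the dotted line on the right is the median of all genes for cycling minus other cells. All intervals on the left lie above 0, from 0.33 at the lowest, while those of the difference between cultures include 0 except for Hmgcs1 and Scd2.

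Clusters were formed without the listed genes, so that their levels could be described across them. Most B-MF cells were in a cluster led by Pf4, Egr1 and Nr4a1 (2476 and 2918 cells) and one led by Myc and Cdkn2a (1759 and 1510 cells). The second had the higher level of all 8 genes in both libraries, by 1.23 to 2.10 times, but 85.5% of 8480 genes had this order. Fdps was at 1.29 and 1.23 in it against 0.615 and 0.623 in the first, whereas Acat1 was at 0.947 and 0.894 against 0.767 and 0.716.

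Among the Mo-MF clusters, the one led by Ly6a and Tmem171 exceeded that led by Mmp14 and Slpi in both libraries for 7 of the 8 genes, as for 70.4% of 8549 genes. Acat1 was at 0.876 and 0.902 in the former and 0.462 and 0.448 in the latter. The ratio was 1.90 to 2.65 for Acat1, Fdps, Sqle, Insig1 and Fasn, and 0.956 to 1.03 for Hmgcs1, the exception.

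The 2 clusters of dividing cells were shared by both cultures. That led by Mcm6 and Mcm5, which load at replication origins, exceeded that led by the mitosis genes Cenpf and Ube2c in all 4 libraries for 6 of the 8 genes, an order that 21.0% of 9423 genes had. The ratio was highest for Fasn, at 2.44 to 3.76, and was 1.54 to 1.73 for Fdps, while Acat1 and Scd2 each fell below 1 in 1 library.

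In the Mcm6 cluster Fdps was at 2.75 and 2.34 in B-MF but at 0.843 and 1.05 in Mo-MF, and Scd2 at 0.991 and 1.09 against 0.284 and 0.225. All 8 genes lay higher in both B-MF libraries than in both Mo-MF libraries there, as did 29.2% of 9350 genes. In the Cenpf cluster this also held for all 8 and for 34.2% of 9438 genes. A further shared cluster was led by Malat1 and mitochondrially encoded genes. In it 6 of 8 had this order, with 39.9% of 6897 genes, while Idi1 and Fdps overlapped. Fasn, counted among the 6, was at 0.0324 to 0.0831 and so under the mean of 0.1 required for the 6897.

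The neutrophil-like cells of the Mo-MF cultures were not uniform. Cells led by Ngp and Camp, genes of neutrophil granules made during maturation, had Fdps at 1.45 and 1.17 and Idi1 at 0.588 and 0.602. Those led by Cxcr2, a receptor of mature neutrophils, had Fdps at 0.249 and 0.225 and Idi1 at 0.126 and 0.156. Of the 8 genes, 7 had this order in both libraries, as did 23.0% of 8055 genes. Acat1 did not, at 0.303 and 0.223 in the first and 0.303 and 0.337 in the second. Fasn, counted among the 7, was at 0.0359 to 0.0756 and so under the mean of 0.1 required for the 8055.

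**Figure D3:**
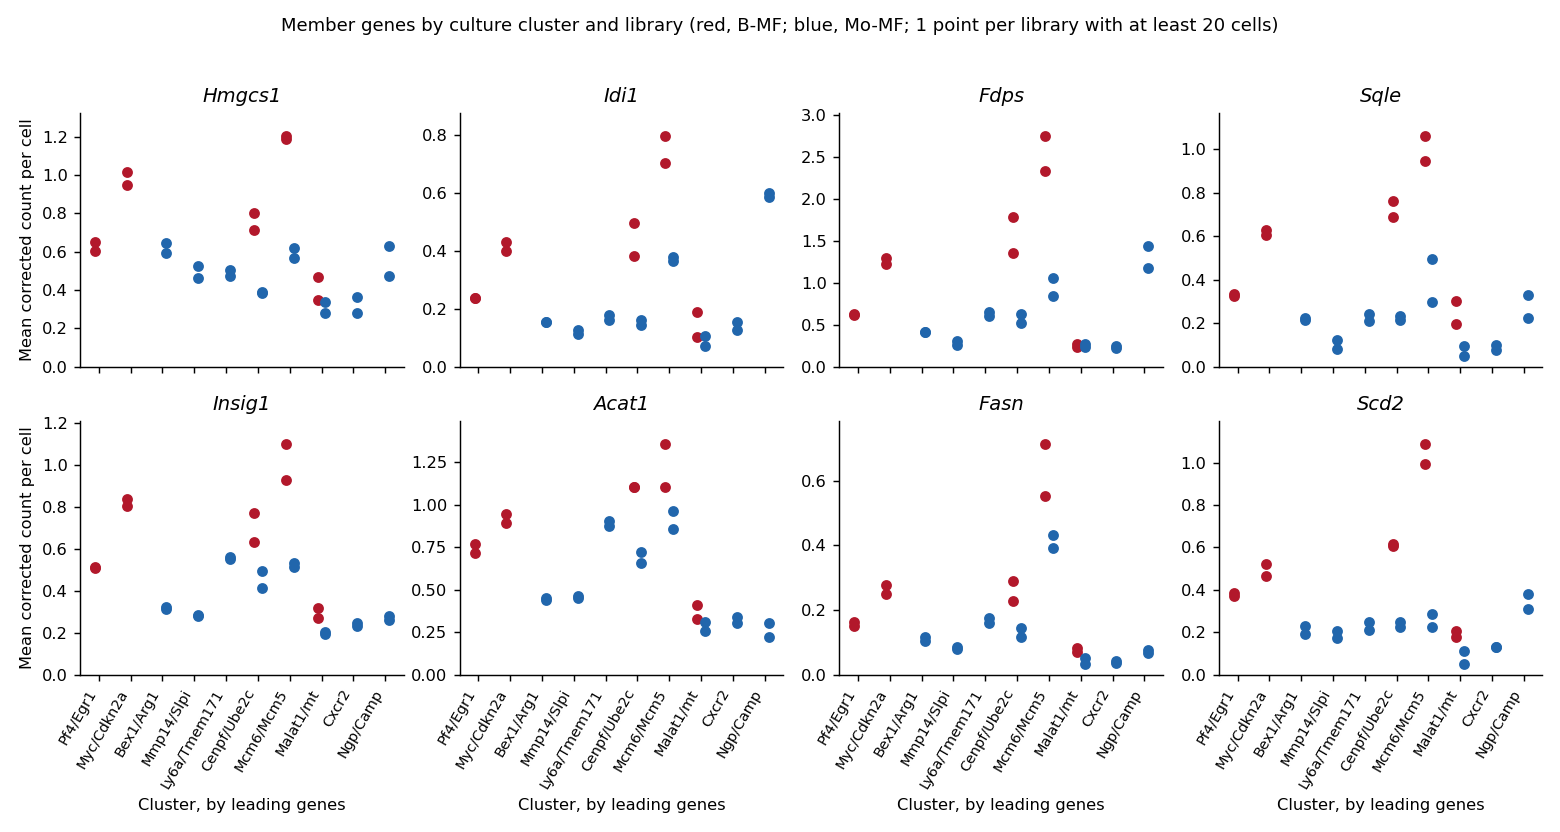
Mean corrected count per cell (vertical axes, from 0) of the 8 genes in 10 clusters of the cultures, named by leading genes on the horizontal axis; each point is 1 library with at least 20 cells of the cluster, red for B-MF and blue for Mo-MF. In the clusters plotted, Fdps was highest in the Mcm6/Mcm5 cluster of B-MF, at 2.75 and 2.34, and Fdps and Idi1 are also high in the Ngp/Camp cluster of Mo-MF.

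Across single cells of the cultures the genes varied together only weakly. Among the 10 pairs of Hmgcs1, Idi1, Fdps, Sqle and Insig1 the Pearson r of log values within a library had a median of 0.28 and 0.26 in the 2 B-MF libraries and of 0.14 and 0.12 in the 2 Mo-MF libraries, over 5237, 5326, 4846 and 5389 cells. Pairs with Acat1 had medians of 0.064 to 0.13. The highest single value in the cultures was 0.35, for Sqle with Fdps. Cells of a library share its depth and clusters, and counts are sparse, so these values are a description; without cycling cells the medians of the first 10 pairs were 0.12 to 0.27. Over 34 means of library and cluster, 5 genes outside the lists were most like the mean profile of the 5 sterol genes, out of 9025 ranked: St3gal5 (r = 0.91), Gchfr (0.87), Etv5 (0.86), Marveld1 (0.84) and Appl1 (0.82). The listed Cyp51 (0.92) ranked 3 among all genes, behind Sqle and Fdps, which are themselves in the profile. In the tumor, medians of the 10 sterol pairs by library were 0.28 to 0.34 over all cells, with a highest value of 0.47. In non-cycling monocyte/macrophage-like or unnamed proliferating tumor cells they were 0.29 to 0.34, with a highest value of 0.48. These values are a description as well.

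In the tumor, all 8 genes were detected. Clusters that scored highest for monocyte or macrophage markers held 733 to 1962 cells of a library. Neutrophil-like clusters held 1115 to 1647, although the cells were labelled as macrophages. The cluster called unnamed proliferating below also met monocyte markers (6 of 6). It scored higher for proliferation and is not in the first count. Over whole libraries, 7 neutrophil markers summed to 442 to 776 and 8 macrophage markers to 14.5 to 33.8 counts per cell. All 7 testable genes were higher in monocyte/macrophage-like than in neutrophil-like cells, by log2 differences of 1.35 (Hmgcs1) to 2.32 (Scd2), where 69.6% of 5808 genes tested were higher, 19.3% lower and 88.9% called. The median was 1.46 over the 7 and 0.55 over all genes. Of the 7, Sqle, Idi1, Insig1, Acat1 and Scd2 were under the minimum mean of 0.1 in the neutrophil-like cells of every library. These 5 passed the filter through the cells where they were high, so the count and the median of the 7 are a description. Monocyte/macrophage-like cells had more corrected counts (means of 8323 to 8391 against 7532 to 7647 per cell) and more detected genes (medians of 2478 to 2498.5 against 1319 to 1382), and the part of these differences was not tested. With the median of all genes set to 0, 46.4% instead of 78.3% of called genes were higher, and the differences of the 7 genes were 0.74 to 1.71.

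Scd2 had levels of 0.535, 0.681, 0.597 and 0.513 in the monocyte/macrophage-like cells of tumor libraries 2 to 5 and of 0.0358, 0.0418, 0.0404 and 0.0267 in their neutrophil-like cells (log2 difference 2.32). Fdps was at 0.603, 0.589, 0.573 and 0.646 against 0.108, 0.161, 0.102 and 0.0996 (1.70). The groups lay far apart in all 4 libraries. Sqle was at 0.195 to 0.224 against 0.00971 to 0.0209, Acat1 at 0.284 to 0.349 against 0.0278 to 0.0484 and Insig1 at 0.380 to 0.416 against 0.0708 to 0.0967. Fasn, at 0.0551 to 0.0710 and 0.00358 to 0.0118, was below the minimum mean for the test. The exporter gene Abca1 was lower (-0.23).

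The lists stand beside the 69.6% of all genes that were higher and their median of 0.55, and the filter bears on them in the same way. Of 13 tested cholesterol synthesis genes, 11 were higher in monocyte/macrophage-like cells (median 1.23) and 1 lower, the sterol reductase and nuclear envelope gene Lbr (-0.61). Of 7 tested SREBP and uptake genes 6 were higher (median 0.54), of 6 fatty acid genes 5 (1.06), and of 10 thiolysis and ketone genes 8 (0.92), with 1 lower (Acadl, -0.36). LXR and efflux genes were split, 3 higher and 3 lower of 7 (median 0.08), with Apoe, itself a macrophage marker, at 3.08.

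The genes were not even within the monocyte/macrophage-like cells. A cluster led by the MHC class II gene H2-Eb1 and Cxcl9 had Fdps at 1.11, 1.24, 1.20 and 1.54 and Idi1 at 0.429 to 0.767. In a cluster led by Tmem176b and Ccr2, Fdps was at 0.281 to 0.381 and Idi1 at 0.127 to 0.152. The C1qc cluster had Fdps at 0.50 to 0.796 and that led by Pf4 and Ccl8 at 0.118 to 0.356. Outside these cells, a dendritic-like cluster of 21 to 29 cells per library, led by Ccl5, Fscn1 and Ccr7, had Idi1 at 2.39, 1.12, 1.38 and 2.41, above each other cluster in every library with at least 20 of its cells, while its Fdps was at 0.333 to 0.524.

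Cycling cells among the monocyte/macrophage-like and unnamed proliferating cells of the tumor numbered 107, 54, 51 and 58 in libraries 2 to 5. Of 7 testable genes, 2 were higher in them, Acat1 and Fdps, and 1 lower, Insig1, where 19% of 6643 genes tested were higher, 22.6% lower and 41.6% called. Acat1 was at 0.439, 0.537, 0.686 and 0.517 in cycling and at 0.278, 0.310, 0.323 and 0.350 in other cells (log2 difference 0.62, standard error 0.13, limma adjusted p = 0.0048). Fdps was at 1.0, 1.35, 0.647 and 0.810 against 0.580, 0.574, 0.573 and 0.632 (0.57, adjusted p = 0.025), and was no longer called without library 2 (0.52) or library 3 (0.39), at a pseudocount of 0.01 or with no filter on low values. Insig1 was at 0.308, 0.278, 0.275 and 0.190 against 0.415, 0.419, 0.392 and 0.386 (-0.48, adjusted p = 0.014), and was no longer called without library 5 (-0.40) or with cycling cells set at 1 count (-0.27) or 6 counts (-0.42).

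Hmgcs1 (-0.09), Idi1 (0.23), Scd2 (0.17) and Sqle (0.06) did not pass, and the intervals of the last 2 were -0.17 to 0.51 and -0.21 to 0.34. The unnamed proliferating cluster held 10 cells of library 2 and 33 to 51 of the others. In those others Acat1 was at 0.608 to 0.727 in this cluster. It was at 0.181 to 0.464 in the monocyte/macrophage-like clusters of the 4 libraries. The part of this cluster in the differences was not tested. Of the lists, LXR and efflux genes were lower for 5 of 8, among them Abca1 (-1.44), Apoe (-1.09) and Soat1 (-0.58). Of 16 tested cholesterol synthesis genes 2 were higher, Lbr (1.14) and Fdps, and 1 was lower, Ggps1 (-0.36). SREBP control and uptake genes had 3 lower of 10, Insig2 (-1.02), Insig1 and Srebf1 (-0.40), and fatty acid genes 1 higher, Fads1 (0.62), and 1 lower, Elovl5 (-0.38), of 7. Thiolysis and ketone genes had 3 higher and 1 lower of 11, with Oxct1 (0.53) and Acadl (0.42) beside Acat1.

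**Figure D4:**
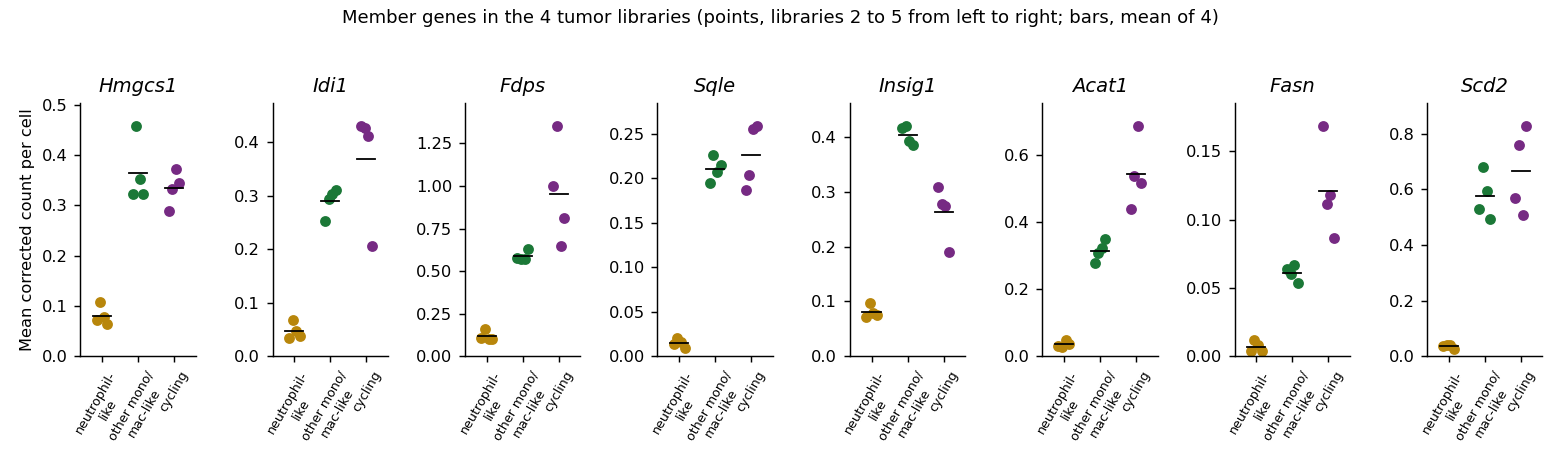
Mean corrected count per cell (vertical axes, from 0) of the 8 genes in tumor libraries 2 to 5, for neutrophil-like cells, other monocyte/macrophage-like cells (with non-cycling cells of the proliferating cluster) and cycling cells of the same clusters; bars are means of 4 libraries. Neutrophil-like points lie below the others for all 8 genes. In cycling cells Acat1, Fdps and Fasn lie above and Insig1 below the other cells in all 4 libraries, but Fasn was too low to be tested. The share of all genes with these orders was not counted.

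In the ATAC-seq lists, all 8 genes had a peak within 500 bases of an annotated start site in each of the 12 libraries, as did 48.9% of 21827 protein-coding genes. Peaks had been called by the authors in each library, and the fold enrichment compares a peak with its local background. It ranged from 19.5 to 21.7 over the 12 libraries at Hmgcs1, from 22.3 to 25.6 at Idi1, from 27 to 32.2 at Fdps and from 22.0 to 26.5 at Sqle. At Insig1 it was 12.2 to 16.7, at Acat1 26.2 to 34.8, at Fasn 8.56 to 15 and at Scd2 13.7 to 18.3.

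For 4 of the 8 genes, all 6 spleen libraries lay above all 6 BM libraries, an order that 24.9% of the 10680 genes with a peak in all libraries had. Acat1 was at 26.2 to 28.4 in BM and 32.4 to 34.8 in spleen, Fasn at 8.56 to 11.4 and 13 to 15, Insig1 at 12.2 to 13.9 and 14.6 to 16.7, and Idi1 at 22.3 to 23.3 and 23.4 to 25.6. The ranges of Idi1 nearly touch. Within BM, CSF1R- libraries lay above CSF1R+ libraries for Hmgcs1 and Sqle, 2 of 8, against 28.7% of genes. In spleen no gene of the 8 had CSF1R+ above CSF1R- without overlap, against 16.0% of genes. The order counted in spleen is the reverse of that counted in BM, and the opposite order in each tissue is not reported here. Fold enrichment moves with depth and background, which were not given per library, and no test was made. The peak covered the whole printed window of Hmgcs1, Insig1 and Fasn in all 12 libraries and part of that of Idi1.

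**Figure D5:**
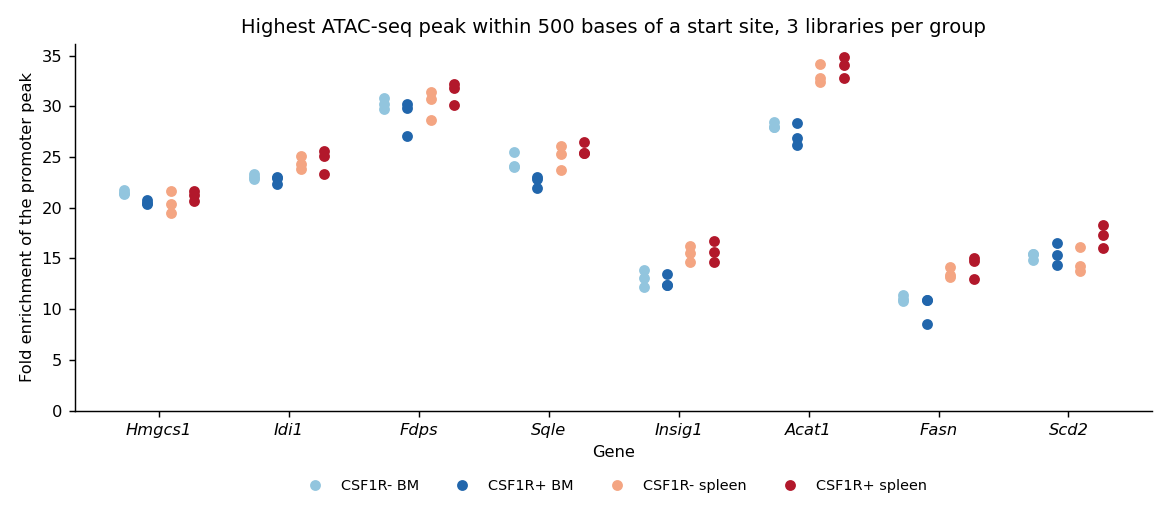
Fold enrichment (vertical axis, from 0) of the highest peak within 500 bases of a start site of each gene, 1 point per ATAC-seq library, with 3 libraries per tissue and CSF1R class, BM in blue and spleen in red. Spleen libraries lie above BM libraries at Insig1, Acat1, Fasn and, narrowly, Idi1.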

How the data were processed

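Per the labels, 8 scRNA-seq libraries (2 B-MF, 2 Mo-MF, 4 tumor) and 12 ATAC-seq libraries were analysed. The authors counted transcripts with Cell Ranger, required 1000 genes per cell, corrected counts with SCTransform and deposited natural log values of 1 plus the corrected count. Converted back, the values were whole within 0.01. Counts before correction were not used, so no count model was fitted, and SCTransform totals do not give sequencing depth. Such correction can shift low genes. For ATAC-seq the authors trimmed reads with cutadapt, aligned them to mm10 with BWA and called peaks with MACS2. Their deposited lists give each peak's fold enrichment, a ratio, and the −log10 of its q-value. Read depth per library was not given.

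Cells were averaged per library, log2(mean + 0.1) was compared by limma (lmFit, eBayes, Benjamini-Hochberg over all genes with a mean of at least 0.1), and comparisons within libraries had the library as a term. Clusters came from the Leiden algorithm (2000 variable genes without the listed ones, 30 components, 20 neighbors, resolution 0.5), and were assigned a type where at least 3 and 50% of its markers exceeded the average over clusters. Where several types qualified, the type with the highest mean standardized level of its markers was taken. Culture clusters that met osteoclast markers were left unnamed because their leading genes were others. No doublet caller was run. The script was tested on simulated data. The 8 genes and the lists were chosen with earlier results of these data known. Named genes were the 8, up to 4 passing genes per list and direction with the largest difference, fixed genes including Srebf1, Srebf2, Scd1, Acat2 and Abca1, and the 5 genes most like the sterol profile. Some genes that this rule names are not reported here. Clusters were described after their values were seen. Tumor libraries 2 to 5 carry the numbers of the cell names, which could not be matched to the replicate numbers of the labels. RefSeq and GENCODE vM21 annotations of GRCm38 were used. Alternatives were other pseudocounts, filters, scalings, cycling thresholds, resolutions and peak rules, a replicate block and each library left out. Tools were limma 3.58.1 in R 4.3.3 and, in Python 3.11.15, leidenalg 0.10.2 with python-igraph 0.11.9, scikit-learn 1.9.0, pandas 2.3.3, numpy 2.4.6, matplotlib 3.10.9 and scipy 1.17.1.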

Additional observations from a re-analysis of the deposited data

Results flagged for a closer look

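Among the monocyte/macrophage-like and unnamed proliferating tumor cells, Insig1 was lower in cycling than in other cells in all 4 libraries (mean log2 difference -0.48). In the cultures it was higher in cycling cells of all 4 libraries (mean 0.29). The 2 tables were corrected separately, and this difference between them was not tested. In the cultures the sign of Insig1 turned, to -0.06, when the median of all genes was set to 0.

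Of 56 groups of 4 tumor libraries examined with Dixon's test, 1 library lay apart from the others in 3, where chance gives about 2.8, or 1 in 20. These were, first, Fdps in neutrophil-like cells of library 3, at 0.161. The others were in the monocyte/macrophage-like and unnamed proliferating cells of library 5: Fdps in the non-cycling cells, at 0.632, and Idi1 in the cycling cells, at 0.207.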

How the results depend on the processing

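The 8 genes were higher in B-MF, with and without cycling cells, under every pseudocount, filter, scaling, cycling threshold, left-out library and block tried. The number of all genes called moved more: 1991 to 5535 with 1 library left out (all cells; 3413 with all libraries) and 2031 to 5323 without cycling cells (3345 with all libraries). Such a fit leaves 1 library of a culture, which is assumed to vary like the others. With a replicate block the counts were 3908 and 3996 genes and all 8 of the genes. The numbers are not known to pair the libraries. The difference of replicate 1 minus replicate 2 in B-MF correlated with that in Mo-MF at 0.13, over 8633 genes.

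In cycling cells of the cultures, the median of all genes was also set to 0 (added after seeing the data). Of the 8, 3 were then higher and 1 lower, with Hmgcs1 at -0.28 and Insig1 at -0.058. Over all 9196 genes, 2118 were higher and 3802 lower. The difference of the cycling effect between cultures was the least stable. Of 320 genes called, pseudocounts of 0.01 and 1 gave 137 and 513, no filter on low values 14, and leaving out a library 93 to 179. Of the 8, 2 were called with pseudocount 1, 2 without clusters of other cell types (added after seeing the data) and 1 with cycling cells set at 1 count. Over all genes, the fit without clusters of other cell types called 90 higher and 206 lower of 9138. With cycling cells set at 1 count it was 133 higher and 227 lower of 8894. Signs turned for Idi1 (-0.036) and Fasn (-0.016) at pseudocount 0.01, Fdps (0.13) at pseudocount 1, Fdps (0.22) and Insig1 (0.0053) for means of log values, Fdps (0.33) without other cell types, Insig1 (0.040), Acat1 (-0.013) and Fasn (-0.024) for cycling at 1 count, and Fdps (0.031) for cycling at 6 counts. With a library left out, Idi1 ran from -0.084 to 0.20, Fdps from -0.16 to 0.085, Insig1 from -0.30 to 0.095 and Fasn from -0.083 to 0.25.

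In the tumor, 10052 instead of 5162 genes differed between the cell classes with no filter, where more genes were tested. For cycling tumor cells, 1 gene instead of 2 was higher at pseudocount 0.01, 0 instead of 1 lower with cycling set at 1 or 6 counts, and leaving out a library gave 1 to 2 higher and 0 to 1 lower. Sqle turned to -0.0073 at 1 count and Hmgcs1 to 0.21 at 6 counts, and Hmgcs1 ran from -0.14 to 0.0067 with a library left out. The causes were not tested. The part of depth in low genes such as Fasn in the tumor was not tested, and counts before correction were not used. All 8 genes kept their promoter peaks in all 12 libraries except that the Scd2 peak overlapped the start site itself in 11.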
